A study of Homo sapiens with 12 samples.

Results

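Passage at low oxygen was followed here in IMR-90, a line of fibroblasts from human lung that divides a limited number of times in culture. The comparison sets 3 arrays of old cells at 3% oxygen, which had reached population doubling 53 without becoming senescent, against 3 arrays of young cells at 3% oxygen at population doubling 30, over 19775 genes. These are 6 of the 12 Affymetrix arrays of the study. The other 6 hold senescent cells at 20% oxygen (population doubling 48) and young cells at 20% oxygen (population doubling 30), 3 arrays each. All cultures came from stock received at population doubling 27 and were collected at 80% confluency, and each oxygen level had an incubator of its own. Every array thus comes from 1 cell line, and population doubling goes together with time in culture. That replicates were separate cultures rests on the titles alone, which number them and call them biological, so p-values measure the spread between these arrays, which may be technical.

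Normal fibroblasts stop dividing after a limited number of doublings, in a state called replicative senescence, and oxygen above the level found in tissue is known to bring that arrest forward. Senescent fibroblasts are known for raised inhibitors of the cyclin-dependent kinases, loss of lamin B1 and the secretion of cytokines, chemokines and proteases. Cells kept at low oxygen divide for longer, so late passage can be examined there apart from arrest.

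Each value is a log2 signal from which the probe set's median across all 12 arrays has been subtracted. Differences between groups can be read from it, but levels cannot, so no gene can be set against another by level. For the same reason it cannot be read whether a defining marker of any cell type is present or absent. Fibroblast markers held 17 measured genes, of which 1, fibronectin (FN1), was lower in old cells and none was higher. None of the 17 epithelial, 13 endothelial, 13 immune, 14 adipocyte, cartilage and bone, or 13 mesothelial and neural markers was called, and 1 epithelial marker was called lower without young replicate 2. MCAM alone was higher among 11 markers of pericytes and smooth muscle cells, and its call and that of FN1 ended without some single arrays (adjusted p up to 0.101 and 0.0758).

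Between old and young cells at 3% oxygen, 344 of 19775 genes differed (1.74%), with 194 higher (0.981%) and 150 lower (0.759%) in old cells. A gene was called at an adjusted p under 0.05 (limma, Benjamini-Hochberg over all genes). The balance of rises and falls turned with the setting: it was 88 higher and 112 lower without old replicate 1, 112 and 115 without young replicate 2, and 182 and 195 after quantile normalization. The 3 old and 3 young arrays did not overlap in any of the 344 genes, and over all genes they did not overlap in 15.6%. Where separation on every array is given below for a called gene, it therefore adds nothing to the call. Most called changes were modest: the median absolute log2 change of the called genes was 0.68, and 46 rises and 34 falls reached 2-fold. Over all genes the median log2 change was 0.05. In these bulk samples, a lower signal of a gene in each cell and fewer cells that express it cannot be told apart.

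The 6 arrays were of uneven quality. Old replicate 3 stood nearer to young replicates 2 and 3 than to the other old arrays. The SD over genes of its difference was 0.391 and 0.363 to old replicates 1 and 2, and 0.367, 0.300 and 0.296 to young replicates 1, 2 and 3. Without old replicate 3, 423 genes were called, of which 277 were among the 344. Young replicate 1 stood apart from its group as well. Its SD was 0.416 and 0.381 to young replicates 2 and 3, against 0.538, 0.558 and 0.367 to old replicates 1, 2 and 3. Young replicate 3 lay nearer to every old array (0.296 to 0.335) than to young replicate 1. Young replicate 2 had a 3′ minus 5′ difference of 0.71 on the ACTB control probe sets, against -0.22 to 0.02 on the other 5 arrays at 3% oxygen (a difference that grows as RNA degrades). With 1 array left out, the count of called genes became 200, 187 and 423 for old replicates 1, 2 and 3, and 228, 227 and 247 for young replicates 1, 2 and 3. Of the 344 genes, 156 (88 higher and 68 lower) were called whichever 1 of the 12 arrays was left out, and the genes described below with array values are among these unless stated.

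The largest rises included a steroid enzyme, receptors and ligands. HSD17B2, the dehydrogenase that inactivates estradiol and testosterone, stood at 2.61, 2.19 and 1.83 on the old arrays, against -0.21, -0.40 and -0.61 on the young arrays. CCDC68, a protein of the centriole's appendages, stood at 1.63, 1.44 and 1.25 on the old arrays, against -1.18, -1.07 and -1.07 on the young arrays. The endothelin receptor EDNRB read 2.61, 1.64 and 1.53 on the old arrays, against -0.31, -0.24 and -0.22 on the young ones. In all of these genes every old array was above every young array, by more than the spread within either group. The log2 changes were 2.62 ± 0.17 for HSD17B2 (SE, n = 3 arrays per group, adjusted p = 4.74e-06), 2.55 ± 0.13 for CCDC68 and 2.18 ± 0.21 for EDNRB. DNER, a transmembrane ligand of Notch receptors, had 1.91, 1.57 and 2.03 in old cells, against -0.57, -0.42 and -0.44 in young cells, a change of 2.31 ± 0.26. Cell surface genes followed. CLEC2B, a lectin-type ligand of a natural killer cell receptor, rose 4.14-fold, with 2.01, 1.89 and 1.78 in old cells and -0.02, -0.41 and -0.04 in young cells. CD55, which protects cells from complement by speeding the decay of its convertases, rose 3.61-fold, and its 3 probe sets gave changes of 1.71 to 2.02. TNFRSF21, a death receptor of the tumour necrosis factor receptor family, rose 3.36-fold. Also among the 15 largest rises were the aggrecan-degrading protease ADAMTS5 (3.63-fold), the matrix remodelling protein MXRA5 (3.38-fold), TCIM (3.42-fold), the secreted protein CCDC3 (3.13-fold) and VWA5A (3.1-fold).

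**Figure D1:**
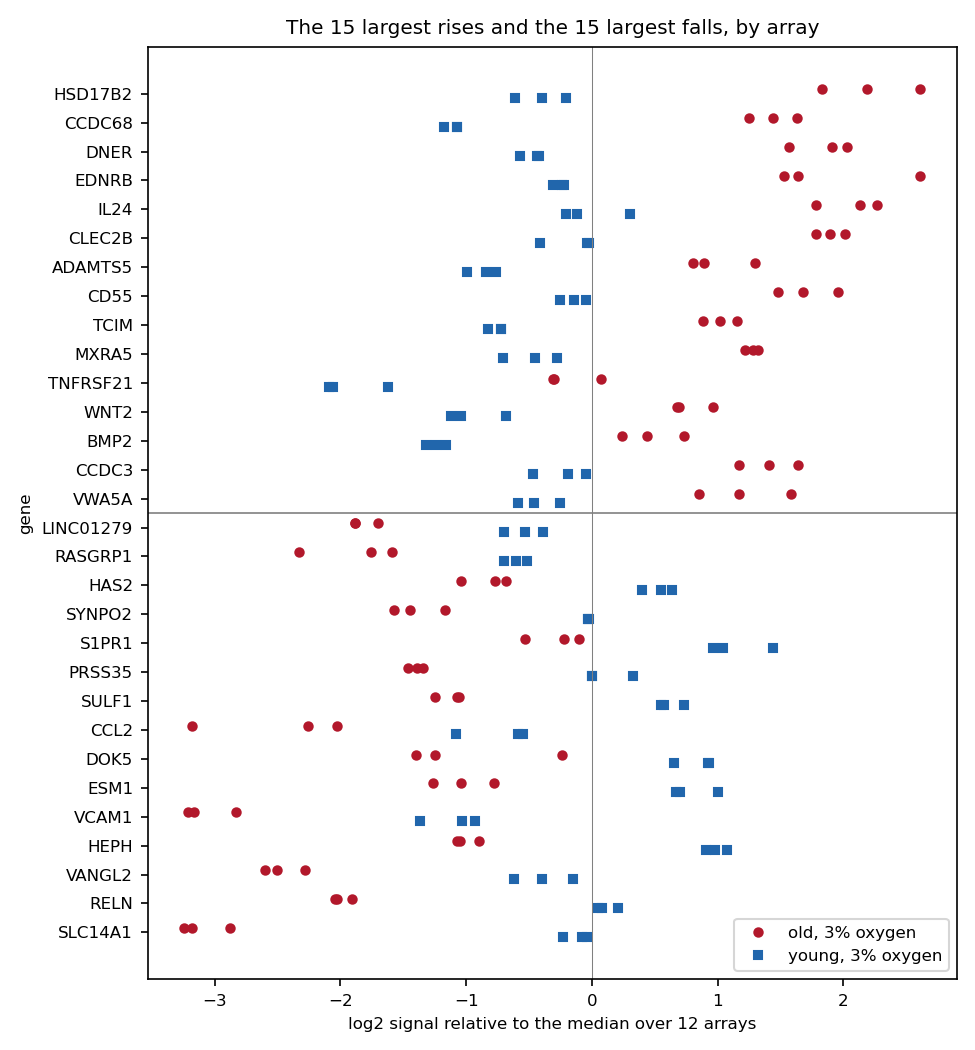
The 15 largest rises and 15 largest falls among genes called between old and young cells at 3% oxygen, ordered by change. Each row is a gene; red circles are the 3 old arrays and blue squares the 3 young arrays, on a horizontal axis of log2 signal relative to the median over the 12 arrays. In every row the groups do not overlap, as the rule that picked the genes requires. The largest differences of group means are HSD17B2 (2.62) among rises and SLC14A1 (-2.98) among falls.

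The largest fall was in SLC14A1, the urea transporter that carries the Kidd blood group, with -3.18, -3.24 and -2.88 on the old arrays, against -0.08, -0.23 and -0.04 on the young arrays. Its log2 change was -2.98 ± 0.11, or 7.9-fold lower (adjusted p = 3.52e-08). RELN, the secreted glycoprotein reelin that guides migrating neurons, had -1.91, -2.03 and -2.04 in old cells and 0.08, 0.21 and 0.05 in young cells. VANGL2, a core protein of planar cell polarity, had -2.28, -2.50 and -2.60 in old cells and -0.15, -0.62 and -0.40 in young cells. In each of these genes the gap between the groups was several times the spread within them. ESM1, a secreted proteoglycan best known from endothelial cells, fell 3.53-fold, with -1.04, -1.26 and -0.78 in old cells and 0.67, 1.00 and 0.70 in young cells. The sulfatase SULF1, which removes sulfate groups from heparan sulfate, fell 3.35-fold, and the hyaluronan synthase HAS2 2.57-fold. S1PR1, a receptor of sphingosine 1-phosphate, fell 2.7-fold, the serine protease-like PRSS35 2.84-fold, the Ras activator RASGRP1 2.44-fold and the long noncoding RNA LINC01279 2.43-fold. In DOK5, an adaptor of receptor tyrosine kinases, old replicate 3 lay apart from its group: the gene read -1.40, -1.25 and -0.24 in old cells and 0.92, 0.65 and 0.93 in young cells.

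For several of these genes the change of the gene rested on some of its probe sets. HEPH, the copper oxidase that helps export iron, fell 3.98-fold as a gene, with changes of -3.77 and -0.22 on its 2 probe sets. SYNPO2, an actin-binding protein of smooth and striated muscle, fell 2.59-fold over 7 probe sets that ran from -2.83 to 0.14. DOK5 gave -3.10 and -0.49, BMP2 0.77 and 2.65, and ADAMTS5 -0.11 to 3.09 over 4 probe sets. Among genes described below, PTGIS gave -1.75, -0.35 and -0.22, EGLN3 1.56 and 0.36, and CHL1 1.70 and 0.04. POSTN ran from -1.52 to -0.19, COL4A5 gave 1.62 and 0.41, and TRPA1 2.22 and 0.71. Among all called genes, 141 had a single probe set, and in 177 of the other 203 every probe set changed in the same direction.

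Inflammatory genes moved in both directions in old cells. The transcription factor NF-kB is held in the cytoplasm by inhibitors, is freed by cytokine signals and then drives adhesion molecules, chemokines and its own inhibitors. Of 34 measured NF-kB-linked genes, 3 were higher and 4 lower (20.6% called, against 1.74% of all genes), and the list median was close to 0. Lists were chosen with earlier results of these data known, so this share and those of the lists below are no test of enrichment. The 1.74% also takes in genes that vary little: with flat genes left out, 284 of 9888 were called. VCAM1, the adhesion molecule that binds integrins of leukocytes, stood at -2.83, -3.16 and -3.21 on the old arrays, against -1.37, -1.03 and -0.93 on the young arrays. The monocyte chemokine CCL2 had -2.03, -2.26 and -3.18 in old cells and -0.55, -1.08 and -0.59 in young cells. For PTX3, a soluble pattern recognition protein, the old arrays read -1.72, -1.71 and -2.05, against -0.73, -0.54 and -0.93 on the young arrays. All 3 genes were lower on every old array than on any young array, by 3.89-fold for VCAM1 (adjusted p = 6.5e-06), 3.36-fold for CCL2 (adjusted p = 0.00185) and 2.14-fold for PTX3 (adjusted p = 0.000409). TNFAIP3, the A20 protein that shuts NF-kB signalling down, fell by 0.70 on the log2 scale (adjusted p = 0.0201). That call ended without old replicate 1 (adjusted p = 0.077), old replicate 2 (0.0976), young replicate 1 (0.079) or young replicate 3 (0.0503).

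Other members of the same list rose. CXCL8, the neutrophil chemokine interleukin 8, had 0.55, 0.49 and 0.39 in old cells and -0.72, -0.49 and -0.39 in young cells, a change of 1.01 ± 0.11 (2.01-fold, adjusted p = 0.000323). The cytokine IL1B had 2.25, 1.89 and 1.65 in old cells and 0.94, 0.71 and 0.86 in young cells, a change of 1.09 ± 0.18. PTGS2, the inducible cyclooxygenase, changed by 0.85 ± 0.19 with an adjusted p of 0.049, a call that ended without any of 9 of the 12 arrays (adjusted p up to 0.193). So the chemokines CXCL8 and CCL2, both of them textbook NF-kB targets, changed in opposite directions in the same cells. Among 55 chemokines, cytokines and their receptors, 2 were higher (IL24 and CXCL8) and 3 lower (CCL2, CXCL12 and LIF), or 9.09% called. IL24, a cytokine of the interleukin 10 family, rose 4.19-fold, with 2.13, 2.27 and 1.78 in old cells and -0.12, -0.21 and 0.30 in young cells. CXCL12, which holds stem cells in their niche, had -0.33, -0.53 and -0.86 in old cells and 0.40, 0.39 and 0.47 in young cells. The cytokine LIF had -0.70, -0.76 and -0.99 in old cells and -0.03, -0.02 and 0.15 in young cells. Neither group's arrays reached into the other's for any of these genes. Over the 53 measured genes of the secretory phenotype, 5 were higher and 4 lower (17% called), with a median of 0.09. Under every leave-out 5 higher and 3 lower were called, and the fall of IGFBP3 lost its call without some arrays (adjusted p up to 0.125). IL6, the best known cytokine of senescent fibroblasts, was not called (0.26, adjusted p = 0.362).

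**Figure D2:**
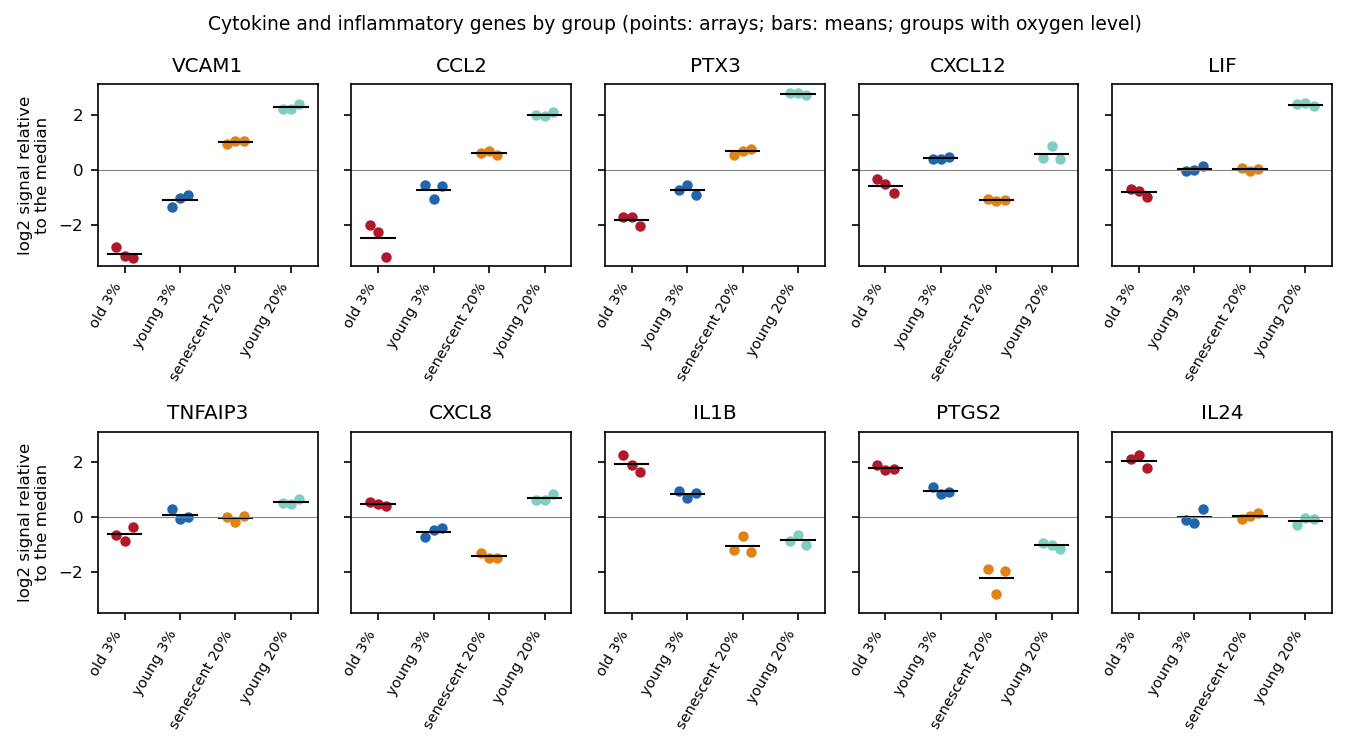
Values of 10 inflammatory genes on each array, in old and young cells at 3% oxygen and in senescent and young cells at 20% oxygen. The vertical axis is log2 signal relative to the median over the 12 arrays, points are arrays and bars are group means (n = 3). At 3% oxygen the old arrays lie below the young arrays for VCAM1, CCL2, PTX3, CXCL12, LIF and TNFAIP3 and above them for CXCL8, IL1B, PTGS2 and IL24.

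The 250 bases before the start of 4 of these genes are given to show promoters of members that fell (VCAM1 and TNFAIP3) beside promoters of members that rose (CXCL8 and PTGS2). They are from RefSeq on GRCh38.p14, 5′ to 3′ on the gene's strand, at chr1:100719492-100719741 (+) for VCAM1, chr6:137867009-137867258 (+) for TNFAIP3, chr4:73740319-73740568 (+) for CXCL8 and chr1:186680424-186680673 (-) for PTGS2. Capitals mark matches, on either strand, to the kappa-B consensus GGGRNWYYCC, to the AP-1 motif TGANTCA or to TATAAA. In these patterns R is A or G, W is A or T, Y is C or T and N is any base.
VCAM1: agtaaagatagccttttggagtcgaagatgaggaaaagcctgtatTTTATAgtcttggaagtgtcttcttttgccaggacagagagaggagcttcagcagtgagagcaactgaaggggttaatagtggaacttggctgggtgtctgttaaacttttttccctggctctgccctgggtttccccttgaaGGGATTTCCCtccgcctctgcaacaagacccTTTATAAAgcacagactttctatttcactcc
TNFAIP3: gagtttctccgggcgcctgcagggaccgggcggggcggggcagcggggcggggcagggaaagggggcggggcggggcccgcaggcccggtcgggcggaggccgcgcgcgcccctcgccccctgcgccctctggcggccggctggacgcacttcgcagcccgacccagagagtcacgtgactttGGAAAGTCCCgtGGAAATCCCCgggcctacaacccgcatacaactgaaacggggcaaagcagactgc
CXCL8: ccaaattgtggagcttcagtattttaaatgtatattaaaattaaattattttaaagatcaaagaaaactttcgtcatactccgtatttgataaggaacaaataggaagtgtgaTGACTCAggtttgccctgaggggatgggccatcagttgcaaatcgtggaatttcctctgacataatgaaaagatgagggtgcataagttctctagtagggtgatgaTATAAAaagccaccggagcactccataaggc
PTGS2: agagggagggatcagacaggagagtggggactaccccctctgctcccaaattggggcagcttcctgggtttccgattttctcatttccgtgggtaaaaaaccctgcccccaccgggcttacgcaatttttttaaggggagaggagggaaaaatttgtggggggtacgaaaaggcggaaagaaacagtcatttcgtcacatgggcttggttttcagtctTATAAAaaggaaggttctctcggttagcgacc
Among the called NF-kB-linked genes with a promoter entry, the kappa-B consensus matched 1 time in VCAM1, 62 bases before the start, 2 times in TNFAIP3, at 67 and 55 bases, and 2 times in PTX3, at overlapping positions 97 and 96. It matched in none of CXCL8, IL1B and PTGS2, but the window of CXCL8 holds tggaatttcc, which misses the consensus at its first base only. The window of PTGS2 holds gggactaccc, which also misses it at 1 base only. CCL2, which also fell, had no promoter entry. The split by direction therefore holds for this exact pattern, this window and these genes alone, and allowing 1 mismatch would add CXCL8 and PTGS2. The calls of TNFAIP3 and PTGS2 also ended without some single arrays, as given above. The AP-1 motif matched in CXCL8 alone, 137 bases before the start. TATAAA matched 31 bases before the start of CXCL8, 32 before that of PTGS2, and at 205, 31 and 29 bases in VCAM1, the last 2 of which overlap. Of 27305 promoters of this length, 5.05% held the kappa-B consensus, 6.6% the AP-1 motif and 11.1% TATAAA. A match is a description of the letters, and a missing match says nothing about binding of the factor.

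Ligands and receptors of developmental pathways changed as single genes. In the bone morphogenetic protein (BMP) pathway, 4 of 28 measured genes were higher and 1 lower (17.9% called), with a median log2 change of 0.21. The ligand BMP2 had 0.73, 0.44 and 0.24 in old cells and -1.16, -1.32 and -1.24 in young cells, 3.27-fold higher. HEY1, a repressor that BMP and Notch signals both induce, had 1.17, 0.96 and 1.13 in old cells and 0.11, -0.06 and -0.04 in young cells, 2.11-fold higher. Both stood higher on every old array. The remaining calls in this list did not hold without some arrays: ID3 (0.62) was lost without any of 11 arrays, SMAD9 (0.54) without 3, and the BMP antagonist NOG (-0.93, adjusted p = 0.0492) without 10. The list kept 2 higher and none lower without old replicate 1, old replicate 2 or young replicate 2, and 3 higher and none lower without any 1 array at 20% oxygen. In the Notch pathway, DNER and HEY1 were called of 30 measured genes (6.67%), both higher, and the list median was 0.13.

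Wnt and planar polarity genes split, with 5 higher and 3 lower of 51 (15.7% called). Without old replicate 2 or without young replicate 3 there were 4 and 1, and VANGL2 was the single fall called under every leave-out. The lung mesenchymal ligand WNT2 had 0.96, 0.69 and 0.68 in old cells and -0.68, -1.04 and -1.12 in young cells, 3.31-fold higher (1.73 ± 0.19). WNT16 had 0.89, 0.83 and 0.52 in old cells and -0.50, -0.31 and -0.29 in young cells, 2.16-fold higher. DKK1, a secreted Wnt antagonist, rose 1.49-fold. Within the planar polarity branch, PRICKLE2 rose 1.78-fold while VANGL2 fell 4.2-fold. Thus ligands, an antagonist and polarity proteins were all among the changed genes, and the list median was 0.09.

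Genes of vascular tone and prostanoid synthesis also split, with 3 higher and 2 lower of 51 (9.8% called). The rises include PTGS2, whose call was lost without most single arrays as given above. Beside EDNRB and S1PR1, the constitutive cyclooxygenase PTGS1 had 0.73, 0.54 and 0.43 in old cells and -0.07, -0.18 and -0.21 in young cells, 1.64-fold higher. PTGIS, the synthase of prostacyclin, had 0.01, -0.04 and 0.01 in old cells and 0.72, 0.71 and 0.87 in young cells, 1.71-fold lower. Of 67 ion channels 2 were higher and 2 lower (5.97% called). Without old replicate 1, old replicate 2 or young replicate 2, 1 was higher and none lower, and without young replicate 1, 2 and none. TRPA1, the irritant-gated cation channel, had 0.94, 0.57 and 0.53 in old cells and -0.60, -0.91 and -0.84 in young cells, 2.76-fold higher. Both prostanoid enzymes and the channel separated the groups on every array. Among 69 neuronal guidance and adhesion molecules, 4 were higher and 3 lower (10.1% called), and 3 and 1 without old replicate 2. The guidance cue SEMA3A rose 1.67-fold, the adhesion molecule CHL1 1.83-fold and the guidance receptor ROBO1 1.49-fold, and RELN fell 4.3-fold. The protocadherin FAT4, a large cadherin that acts in planar polarity and Hippo signalling, rose 1.78-fold.

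Genes of the extracellular matrix moved in both directions. Collagens had 4 of 29 measured genes higher and 1 lower (17.2% called), with a median of 0.08. COL5A3, a chain of type V collagen, had 1.36, 1.10 and 0.89 in old cells and -0.60, -0.07 and -0.40 in young cells, 2.77-fold higher. The basement membrane collagens COL4A5 (2.02-fold), COL18A1 (1.76-fold) and COL15A1 (1.68-fold) were higher as well. The main fibrillar collagens did not pass the test: COL1A1 changed by 0.15 and COL3A1 by 0.04. COL11A1 was lower (-1.07, adjusted p = 0.0323), a call lost without any of 8 arrays (adjusted p up to 0.154).

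Of 58 other matrix proteins, 4 were higher and 7 lower (19% called, median -0.03), and 4 and 3 without old replicate 2. The calcium-binding basement membrane protein SMOC1 had 1.58, 0.92 and 0.92 in old cells and 0.04, 0.20 and 0.04 in young cells, 2.06-fold higher. VCAN, the proteoglycan versican, rose 1.48-fold and CTHRC1 1.45-fold. Matricellular proteins, which regulate adhesion without bearing load, moved in both directions. CCN4 was higher, a call that ended without old replicate 1 (adjusted p = 0.0516). POSTN (periostin) was lower, with -1.02, -0.90 and -0.90 in old cells and -0.04, -0.28 and -0.13 in young cells. THBS2, an inhibitor of angiogenesis, had -0.23, -0.21 and -0.11 in old cells and 0.49, 0.69 and 0.50 in young cells. These 2 genes fell 1.73-fold and 1.67-fold, and CCN1, another matricellular protein, 1.47-fold. BGN (-0.82), ELN (-0.73), FN1 (-0.44) and MFAP5 (-0.65) were lower too, but their calls ended without at least 1 array, with adjusted p up to 0.113, 0.0886, 0.0758 and 0.055. The 2 probe sets of ELN disagreed in sign (-1.66 and 0.21), and those of FN1 ran from -0.98 to 0.03. Proteases and their inhibitors had 2 of 52 genes higher and 2 lower (7.69% called). The collagenase MMP1 (1.63-fold) and ADAMTS5 were higher, and TIMP3, a matrix-bound protease inhibitor, fell 1.62-fold. The fall of SERPINF1 lost its call without some arrays (adjusted p up to 0.154). None of 20 collagen-modifying enzymes was called, and 1 was called higher without old replicate 3. Of 26 contractile genes SYNPO2 and TAGLN (1.64-fold) were lower and none was higher (7.69% called). ACTA2, the smooth muscle actin of myofibroblasts, was not called (-0.14).

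**Figure D3:**
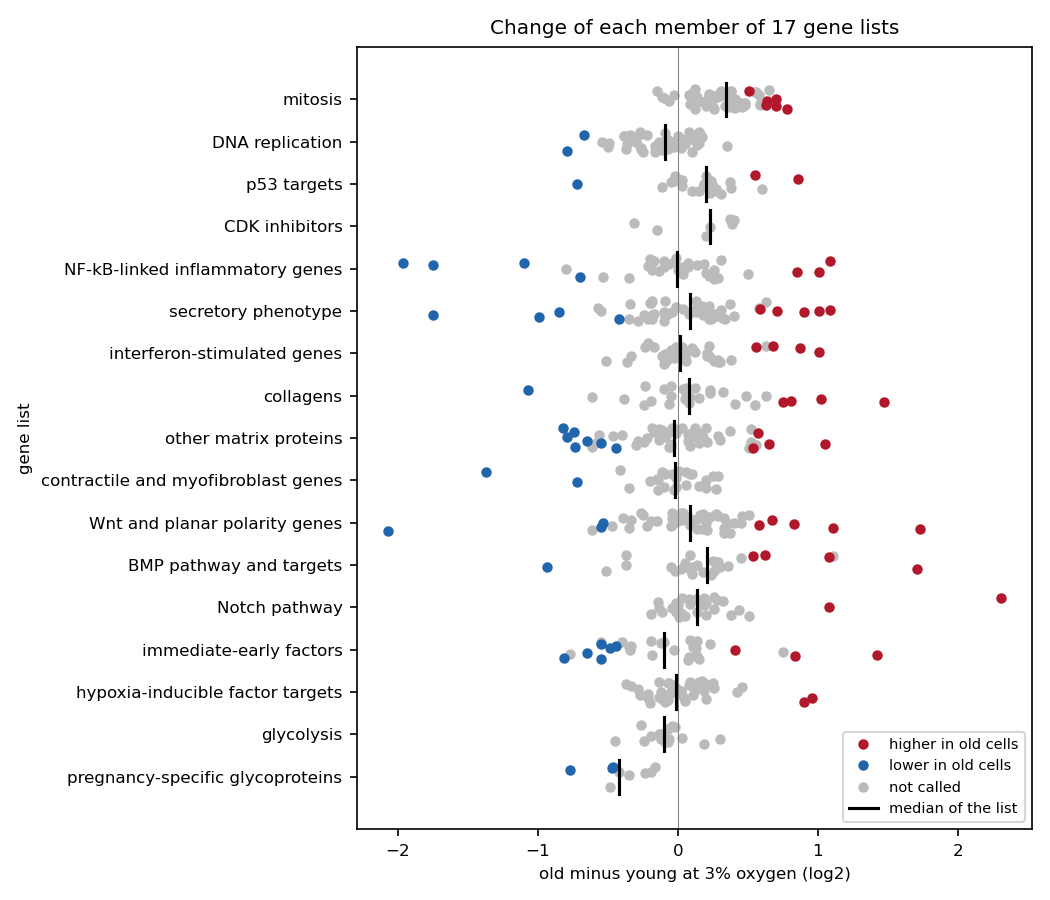
Log2 change, old minus young at 3% oxygen, of every measured member of 17 gene lists. Each point is a gene, red where called higher, blue where called lower and grey where not called, and the black bar is the list's median. Most members of every list are grey, and the medians lie near the 0.05 of all genes except in a few lists such as the mitosis genes (0.34) and the pregnancy-specific glycoproteins (-0.42).

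Genes that mark arrest in senescent fibroblasts were not called in the old cells. CDKN1A, the inhibitor p21, had 0.22, 0.02 and -0.12 in old cells and -0.19, -0.49 and -0.30 in young cells, a change of 0.37 ± 0.11 (adjusted p = 0.156). None of 7 inhibitors of cyclin-dependent kinases passed the test, and CDKN2A changed by -0.15 (adjusted p = 0.571). The lamin LMNB1 changed by 0.11 (adjusted p = 0.636) and the proliferation marker MKI67 by 0.20 (adjusted p = 0.474). Of 27 p53 targets 2 were higher and 1 lower (11.1% called). The rise of CCNG2 lost its call without some arrays (adjusted p up to 0.102). The polo-like kinase PLK2 had 0.02, -0.02 and 0.07 in old cells and -0.83, -0.91 and -0.77 in young cells, 1.81-fold higher. GADD45A, a stress-induced growth arrest gene, went the other way, with -0.93, -0.91 and -1.01 in old cells and -0.33, -0.13 and -0.23 in young cells, 1.65-fold lower.

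Few genes of mitosis or DNA replication held a call when single arrays were left out. Among 60 mitosis genes 6 were higher and none lower (10% called), 55 had a change above 0, and the median was 0.34 against 0.05 over all genes. The list mean was 0.92 to 1.20 on the old arrays and 0.67 to 0.77 on the young arrays. The calls within it rested on thin margins: NDC80 (0.78), KIF14 (0.70), ASPM (0.70), CDK1 (0.64), ECT2 (0.63) and KIF23 (0.51) each lost theirs without 4 to 11 of the 12 arrays in turn. The number called was 0 without old replicate 1, without old replicate 2 or without young replicate 2, and also in a fit of the 6 arrays alone and with 1 probe set per gene, that of the largest SD, or no averaging of probe sets. Of 51 replication genes 2 were lower (3.92% called), none was higher, and the median was -0.09. MCM6, a subunit of the replicative helicase, had 0.18, -0.21 and -0.03 in old cells and 0.79, 0.76 and 0.75 in young cells, 1.73-fold lower (adjusted p = 0.00431). MCM2, of the same helicase, was lower by a thinner margin (-0.67, adjusted p = 0.05 after rounding) and lost its call without any of 10 of the 12 arrays (adjusted p up to 0.199). The mitosis calls numbered 1 without young replicate 3 and 2 to 3 without any 1 array at 20% oxygen. None of 38 histone genes, 17 telomere genes or 22 genes of homologous recombination was called, and 1 histone gene was called higher without old replicate 3.

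Of 42 targets of the hypoxia-inducible factors 2 were higher and none lower (4.76%, against 1.74% of all genes), with a median of -0.01. EGLN3, a prolyl hydroxylase that marks these factors for destruction, had 1.20, 0.95 and 0.82 in old cells and 0.02, 0.07 and 0.00 in young cells. STC1, a secreted glycoprotein, had 0.66, 0.54 and 0.47 in old cells and -0.36, -0.42 and -0.26 in young cells. These 2 genes were 1.94-fold and 1.86-fold higher, while VEGFA (0.08) and BNIP3 (-0.20) did not pass. None of 18 glycolysis genes, 51 respiratory chain subunits, 23 antioxidant enzymes or 9 metallothioneins was called, and 1 respiratory subunit was called higher without old replicate 3 or young replicate 3. At 1.74% of all genes, lists of this size would hold few calls or none. In iron and copper handling, HEPH and STEAP1, a metalloreductase, were lower and none of 24 was higher (8.33% called). STEAP1 had -1.14, -0.77 and -0.98 in old cells and 0.53, 0.29 and 0.01 in young cells, 2.36-fold lower. STARD4, a carrier of cholesterol, fell 2.43-fold and was the single call among 27 lipid synthesis genes (2 without young replicate 2), and the small heat shock protein HSPB6 fell 1.94-fold and was the single call among 24 heat shock genes.

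Immediate-early genes, which respond to growth factors within minutes, had 3 of 31 members higher and 6 lower (29% called, median -0.10). Under every leave-out 2 higher and 3 lower were called. DUSP6 (higher) and FOSL1, EGR1 and IER3 (lower) lost their calls without some arrays (adjusted p up to 0.197, 0.0936, 0.0721 and 0.0726). The nuclear receptor NR4A2 had 2.16, 1.85 and 1.56 in old cells and 0.26, 0.62 and 0.45 in young cells, 2.67-fold higher, and PHLDA1 was 1.79-fold higher. DUSP5, a phosphatase of ERK, had -1.18, -1.25 and -1.39 in old cells and -0.38, -0.54 and -0.48 in young cells, 1.76-fold lower. JUN, a subunit of AP-1, fell 1.47-fold. Of 42 interferon-stimulated genes 4 were higher and none lower (9.52% called), while their median was 0.02. USP18 among them lost its call without some arrays (adjusted p up to 0.159). IFITM1, a membrane protein that blocks virus entry, had 0.19, -0.19 and -0.23 in old cells and -0.97, -1.32 and -0.98 in young cells, 2.02-fold higher, and SAMD9 was 1.83-fold higher. Among 58 transcription factors of lung mesenchyme 2 were higher and 3 lower (8.62% called). Without old replicate 1 or young replicate 3, 1 was higher and 1 lower, and without old replicate 2 or young replicate 1, 2 and 1. FOXF1, a regulator of lung mesenchyme, rose 1.43-fold, and the limb and trunk patterning gene HOXC4 had -0.73, -0.24 and 0.06 in old cells and 0.56, 1.02 and 0.85 in young cells. All 9 pregnancy-specific glycoproteins had changes under 0 and 3 (33.3%) were called lower, or 1 without old replicate 1, old replicate 2, young replicate 1 or young replicate 2. PSG4 led them at 1.71-fold lower, but these are near-identical copies whose probe sets can read each other.

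The change with passage at 3% oxygen was then set beside that at 20% oxygen, senescent minus young, which uses the other 6 arrays. At 20% oxygen 2474 genes (12.5%) were called, 4.67% of all genes higher and 7.84% lower. Of the 344 genes called at 3% oxygen, 182 (52.9%) were called at 20% too, which is 7.36% of the 2474. In 110 of them the direction was the same, with 46 higher and 64 lower in both, and in 72 it was opposite. Of the opposite ones, 54 were higher with passage at 3% and lower at 20%, and 18 were lower at 3% and higher at 20%. The difference between the changes was itself called for 197 of the 344 (57.3%), against 6.44% of all genes (2.06% above 0 and 4.37% below), but genes called at 3% were chosen on values that enter this difference.

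Opposite changes were found in genes already described. CXCL8 changed by 1.01 at 3% oxygen and by -2.12 at 20%, a difference of -3.13 (20% change minus 3% change, adjusted p = 3.05e-07). WNT2 changed by 1.73 at 3% and -2.55 at 20%, and TRPA1 by 1.46 and -2.78 (difference -4.25). RELN changed by -2.10 at 3% and 1.11 at 20% (difference 3.21, adjusted p = 1.63e-08). Each of these genes thus moved one way in the nonsenescent late-passage cells and the other way in senescent cells, with both changes called. PSG4 did likewise, with -0.77 at 3% and 1.56 at 20%. CTHRC1 changed by 0.54 at 3% and -3.29 at 20%.

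Other genes moved the same way at both oxygen levels. HEPH changed by -1.99 at 3% and -2.45 at 20%, ESM1 by -1.82 and -2.45, and PRSS35 by -1.51 and -1.30. For these the difference was not called, with adjusted p of 0.0674 for HEPH, 0.0939 for ESM1 and 0.605 for PRSS35. VCAM1 changed by -1.96 at 3% and -1.28 at 20%, and CCL2 by -1.75 and -1.40. PLK2, THBS2 and POSTN also changed alike in sign, by 0.86, -0.74 and -0.79 at 3% and 0.68, -0.66 and -0.79 at 20%. STC1 changed by 0.90 at 3% and 1.03 at 20%. An uncalled difference does not show that the changes are equal. CDKN1A differed between the settings: its change was 0.37 at 3% and 1.76 at 20% (difference 1.39, adjusted p = 0.000161). LMNB1 changed by 0.11 at 3% and -0.62 at 20% (adjusted p of the difference = 0.0231). The lists of hypoxia-inducible factor targets and glycolysis had medians of -0.01 and -0.10 at 3%, and of 0.89 and 0.57 at 20%. Doublings also differ between the comparisons, since the late cells were at 53 doublings at 3% oxygen and at 48 at 20%, so oxygen, incubator, arrest and number of doublings cannot be told apart here.

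**Figure D4:**
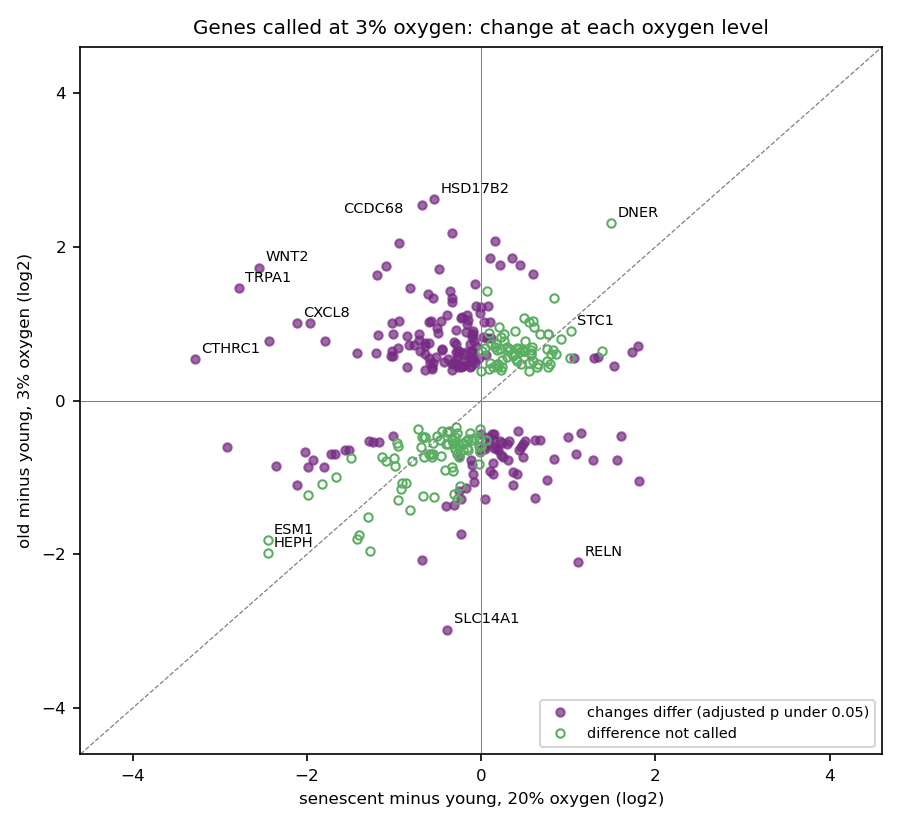
The 344 genes called between old and young cells at 3% oxygen, with their change at 3% on the vertical axis (old minus young, log2) and their change at 20% on the horizontal axis (senescent minus young, log2). Purple points are the 197 genes whose changes differ by the test of the difference, open green points are the others, and the dashed line marks equal change. Genes such as WNT2, CXCL8 and RELN lie where the signs are opposite, and HEPH and ESM1 lie near the line.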

How the data were processed

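RNA from IMR-90 cells was measured on 12 Affymetrix arrays, 3 in each of 4 groups that the sample titles give. Per the submitters' processing notes the deposited values were made with RMA, whose version is not given in the sources used here. The deposited log2 values are centred by the authors on each probe set's median over the 12 arrays (largest absolute median 5e-07), and no source states the base: log2 is taken from the use of RMA. Fold changes rest on that base. The values hold no signal over background, and the number of arrays limits the precision.

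Of 54675 probe sets, 41091 name 1 gene in the platform annotation and were averaged to 19775 genes, 9252 of them with 1 probe set. Another 62 control probe sets, 1801 that name several genes and 11721 that name none were kept out. A linear model with a mean for each of the 4 groups was fitted to the 12 arrays (limma 3.58.1, lmFit and eBayes, R 4.3.3) and tested on simulated data. Two-sided p-values were adjusted across all genes by Benjamini-Hochberg and called under 0.05. Values after ± are SEs. The difference of the changes is the change at 20% minus the change at 3% oxygen, and the 2 changes share no array.

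Genes are named by rule: the 15 largest rises and 15 largest falls among called genes whose groups do not overlap, every called member and up to 4 members with the largest change of each gene list, and a panel of 20 genes. The members and lists were chosen with earlier results of these data known. The deviations of same-numbered old and young arrays from their group means correlated at -0.08, 0.32 and -0.54, so the numbers were not taken as pairs. Alternatives were another eBayes setting, other probe set summaries, normalizations, weights and covariates, a replicate block, stricter thresholds and leaving out each array. Promoter sequences are from RefSeq, GRCh38.p14.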

Additional observations from a re-analysis of the deposited data

Results flagged for a closer look

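Of the 30 genes with the largest changes at 3% oxygen, 21 changed differently at 20% oxygen by the test of the difference (limma, adjusted p under 0.05). The values below are the change at 20% oxygen (senescent minus young) minus the change at 3% oxygen (old minus young), on the log2 scale. Among the genes that rose at 3%, the difference was -4.27 for WNT2, -3.23 for CCDC68, -3.16 for HSD17B2, -2.99 for CLEC2B, -2.84 for TNFRSF21, -2.84 for VWA5A and -2.52 for EDNRB. It was -2.19 for BMP2, -1.91 for IL24, -1.76 for ADAMTS5, -1.55 for TCIM, -1.50 for CD55, -1.30 for MXRA5 and -1.06 for CCDC3. Of the rises, DNER alone did not pass this test (-0.82, adjusted p = 0.252).

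Among the genes that fell at 3%, the difference was 3.21 for RELN, 2.59 for SLC14A1, 1.52 for SULF1, 1.39 for VANGL2, 1.32 for LINC01279, 1.05 for HAS2 and 0.97 for SYNPO2. These genes were picked for a large change at 3% oxygen, and that change enters the difference, which pulls it towards the opposite sign. Groups of 3 arrays are too small for a test of single outlying arrays, so none was made.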

How the results depend on the processing

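All 30 genes with the largest rises and falls kept their direction and their call under every alternative run. They were picked for the largest called changes in these same data, which favours that outcome. The threshold of an absolute log2 change of at least 1 could remove none of them. Of 344 called genes, 114 (63 higher and 51 lower) were called under all 12 leave-outs and under 10 other settings wherever these tested them; the array-wide factor is not among these. A fit of the 6 arrays at 3% oxygen alone called 124 genes (69 higher and 55 lower), an adjusted p under 0.01 162 (88 and 74) and an absolute log2 change of at least 1 80 (46 and 34). An array-wide factor as covariate, chosen after seeing the data, called 2457 (1521 and 936). The cause was not tested. Leaving out 1 array gave 187 to 423 called genes, 88 to 282 higher and 73 to 141 lower. For the difference of the changes, 1273 genes were called (408 above 0 and 865 below), against 2684 with array weights (1035 and 1649), 2684 with the array-wide factor (1073 and 1611), 1936 without averaging probe sets (679 above 0), 624 at an adjusted p under 0.01 (195 and 429) and 452 at an absolute log2 change of at least 1 (129 and 323). The replicate block called 267 genes (151 higher and 116 lower), though the numbers do not pair these arrays. Direction was compared for the genes named by rule only, and none of the called ones among them changed it. Without averaging, each gene stood for this by its probe set of smallest p. Falls outnumbered rises without old replicate 1 (88 higher and 112 lower), without young replicate 2 (112 and 115) and after quantile normalization (182 and 195). The planned filter on dim genes was not run, since the centred values hold no level. The number called at an unadjusted p under 0.05 was 2815.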

Other observations

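The genes in this paragraph and the next were chosen after their values were seen. G0S2, an inhibitor of fat breakdown by adipose triglyceride lipase, stood at 1.57, 1.58 and 1.42 on the old arrays at 3% oxygen, against -0.25, 0.14 and 0.10 on the young arrays (2.88-fold higher). MEST, a gene known to be imprinted, had -1.56, -1.56 and -1.70 in old cells and -0.33, -0.48 and -0.20 in young cells, and DIRAS3, known to be imprinted too, had -0.24, -0.55 and -0.78 in old cells and 0.51, 0.33 and 0.86 in young cells. MEST changed by -1.27 at 3% oxygen and 0.62 at 20%, DIRAS3 by -1.09 and -1.83. UNG, the glycosylase that removes uracil from DNA, fell 1.57-fold with every old array below every young one. The carboxypeptidase CPA4 changed by -1.05 at 3% oxygen and 1.81 at 20% (difference 2.86, 20% minus 3%, adjusted p = 7.5e-07). ANKRD1, a widely used target of YAP, fell 2.11-fold.

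Some called genes lie next to each other. Of the 343 called genes with a position in RefSeq, 17 pairs lay within 100 kb, and 16 of these pairs moved in the same direction. No share over all neighbouring genes was computed, so the count is a description only. Some pairs share members, as in the caspase cluster. The calls of HOXC9, ECT2, PSG1, PSG7 and FZD6, each in 1 of these pairs, ended without some single arrays. The homeobox genes DLX1 (-0.71) and DLX2 (-1.18) both fell, though each has 1 probe set near 0 (0.11 and 0.15). FOXF1 (0.52) rose with FENDRR (0.73), the long noncoding RNA transcribed away from it, whose call was lost without either of 2 arrays (adjusted p up to 0.0667). In the caspase cluster CASP1 (0.75), CASP4 (0.61) and CARD16 (0.64) were higher. CASP1 and CARD16 share sequence and their probe sets may read each other, and the calls of CASP4 and CARD16 were lost without any of 7 and 4 arrays (adjusted p up to 0.148 and 0.129). DIRAS3 and WLS (0.43) were the pair of opposite direction. STEAP1B (-0.91) is a near-identical relative of STEAP1, so their falls may be 1 signal.

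Of 11721 probe sets that name no gene, 3 were higher and 7 lower in old cells, and of 1801 that name several genes, 3 and 2.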
